A study of Mus musculus with 8 samples.

Results

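The 10 genes Atf4, Ddit3, Chac1, Trib3, Sesn2, Ddit4, Atf3, Cebpb, Cebpg and Nupr1 are regulators and outputs of the ATF4 and CHOP stress response. They were taken by name from the gene table, where all 10 had values and were tested, among 17488 genes with values and 13959 tested. The study sequenced RNA from E14 cells, an embryonic stem cell line of mouse strain 129/Ola, in 4 groups with 2 libraries apiece (8 in all). The GSK3α line lacks its own Gsk3a gene and carries a GSK3α transgene with the change L195G, and the GSK3β line lacks Gsk3b and carries GSK3β with L132G. Such changes make a kinase sensitive to the bulky inhibitor 3MB-PP1. All 4 groups were held for 6 h in N2B27 medium without serum. In each line 1 group was untreated and 1 group received 5 µM 3MB-PP1 for 2 h. No vehicle control and no line with a normal kinase are described, so effects of the compound on other targets, or of any difference in total time without serum, cannot be told apart from those on GSK3. In bulk RNA, fewer cells of a kind and less RNA per cell cannot be told apart either. Each kinase is represented by a single line, and the promoter of the transgene is not given in the sources used here. Nothing in the labels says whether the libraries of a group were grown apart, so p-values here reflect only library-to-library spread, which may be technical.

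ATF4 is a transcription factor of the basic leucine zipper (bZIP) class. Stress kinases that sense amino acid shortage, misfolded protein in the endoplasmic reticulum, double-stranded RNA or lack of haem phosphorylate the initiation factor eIF2α. This slows protein synthesis in general but raises translation of Atf4 mRNA through short upstream reading frames. ATF4 protein then binds C/EBP-ATF elements, often as a dimer with a C/EBP factor, and raises genes of amino acid supply together with further regulators, among them CHOP, which is encoded by Ddit3. Much of ATF4's control is therefore translational, and RNA levels of Atf4 do not report its protein.

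Promoters were searched for this element because several of the genes moved together. Each window ran from 250 bases before to 50 bases after a RefSeq transcript start (build GRCm38.p6), and all 10 genes had 1 window. The C/EBP-ATF element was written TGATGNAA and searched on both strands. It was present for 4 of the 10 genes, Chac1, Nupr1, Atf3 and Trib3, and in 3.97% of all 32851 windows. In the lines that follow, the sequence is that of the gene's own strand, capitals mark the match, and the element lies on the opposite strand. Those of Chac1, Nupr1 and Atf3 begin 193, 110 and 110 bases before the start, and that of Trib3 begins 15 bases after it.
Chac1, chr2:119351003-119351102, plus strand: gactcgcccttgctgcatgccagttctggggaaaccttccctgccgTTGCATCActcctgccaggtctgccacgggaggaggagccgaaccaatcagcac
Nupr1, chr7:126625527-126625626, minus strand: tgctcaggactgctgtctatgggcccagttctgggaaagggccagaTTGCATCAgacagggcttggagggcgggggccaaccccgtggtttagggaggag
Atf3, chr1:191183390-191183489, minus strand: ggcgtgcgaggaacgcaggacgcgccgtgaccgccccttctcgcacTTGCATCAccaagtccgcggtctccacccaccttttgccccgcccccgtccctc
Trib3, chr2:152344028-152344057, minus strand: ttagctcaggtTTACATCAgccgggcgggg
The first 3 share the 8 letters TTGCATCA, and Trib3 has TTACATCA. A second motif, the CRE-like TGACGTNA, was found in the window of Atf3 alone among the 10 genes and in 2.93% of all windows. By gene it was found for 5.54% of the 10126 tested genes with a window. In Atf3 it begins 10 bases before the start, directly downstream of the stretch printed above.
Atf3, chr1:191183334-191183389, minus strand: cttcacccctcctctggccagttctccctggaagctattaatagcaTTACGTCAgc
The windows of Atf4, Ddit3, Sesn2, Ddit4, Cebpb and Cebpg hold neither motif. Sites outside the windows were not searched, so this does not show that these genes lack the element.

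The deposited values are gene counts scaled to a common upper quartile, with no correction for gene length. They are called values here, and the tests used log2(value + 1). A call means an adjusted p under 0.05 from limma with Benjamini-Hochberg adjustment over all tested genes. Overlap of libraries, where given, describes 2 values against 2 and is no test. In the GSK3α line the libraries of Ddit4 did not overlap, yet its change did not pass. The libraries held an estimated 21.5 to 32.4 M (mega) reads in genes. Treated libraries were the deeper ones in each line, at 26 M and 26.4 M against 21.5 M and 22.7 M in the GSK3α line and at 31.2 M and 32.4 M against 23.8 M and 28.9 M in the GSK3β line, and the part of depth in the results was not tested. All 10 markers of embryonic stem cells had values, which summed to 6491 to 6675 in every library. The sum does not show opposite changes of single markers. With 3MB-PP1 in the GSK3β line Nanog, Esrrb and Klf4 (log2 0.59) rose, and Utf1, Tdgf1 and Dppa4 fell. The other 4 did not pass, where 14.9% of all tested genes passed. None passed in the GSK3α line. Between untreated lines 3 markers were higher and 5 lower in the GSK3β line, where 48.2% of all tested genes differed. Only 4 of 8 fibroblast and feeder markers had values, with a sum of 11.3 to 16.1, and 7 of 8 primitive endoderm markers, with 13.5 to 15. Col3a1, Dcn, Lum and Postn of the former and Foxa2 of the latter had no value in the table. Of 8 markers of the 2-cell-like state all had values. In the GSK3β line they summed to 121 to 129 untreated and 103 to 108 with inhibitor, and in the GSK3α line to 107 to 113 and 103 to 107. The genes Gm42418, Gm26917 and Lars2, which often collect ribosomal RNA reads, summed to 2294 to 2676 and then 1963 to 1970.4 in the GSK3α line, and to 2008 to 2302 and then 2234 to 2424 in the GSK3β line. The part of these signals in the results was not tested.

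In the GSK3β line 6 of the 10 genes rose with 3MB-PP1, 1 fell and 3 did not pass. Atf4, Ddit3, Chac1, Trib3, Atf3 and Nupr1 rose, by 1.23-fold for Atf4 and by 1.49- to 2.16-fold for the other 5, as ratios of group means. Ddit4 fell to 0.883 of its untreated mean. Of all tested genes 14.9% passed in this comparison, 7.49% higher and 7.44% lower. In the GSK3α line 3 of the 10 rose, Atf4, Chac1 and Trib3, none fell and 7 did not pass. Of all tested genes 0.881% passed there, 0.265% higher and 0.616% lower. Because the adjustment depends on how many genes change, a call took stronger evidence in the GSK3α line. The cell cycle inhibitor gene Cdkn1a had a log2 change of -0.22 (SE 0.05) there and did not pass. Ddit4 passed in the GSK3β line with -0.18 (SE 0.05). The counts of calls therefore do not measure how far the responses of the lines differ. The median log2 change of the 10 genes was 0.43 in the GSK3β line and 0.14 in the GSK3α line, and that of all tested genes was -0.01 and 0.01. These comparisons share no library, but their tests share the spread from 1 fit of all libraries, so they are not independent. The change itself differed between the lines for Ddit3, Nupr1 and Ddit4 only, 3 of 10, 2 upward and 1 downward. Of all tested genes 6.53% differed, 3.62% upward and 2.90% downward. With libraries rescaled to the same total, 432 of all tested genes differed upward and 504 downward, in place of 506 and 405. In the GSK3β line 946 then rose with 3MB-PP1 and 1234 fell, in place of 1046 and 1038. The count of 3 in the GSK3α line became 1 without untreated replicate 1 or without inhibitor replicate 1 of that line, and 0 without the mean-variance trend. The count of 3 for the difference became 0 without inhibitor replicate 2 of the GSK3α line, without inhibitor replicate 1 of the GSK3β line or without the trend. For the GSK3β line 6 or 7 of the 10 genes passed whichever library was left out.

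**Figure D1:**
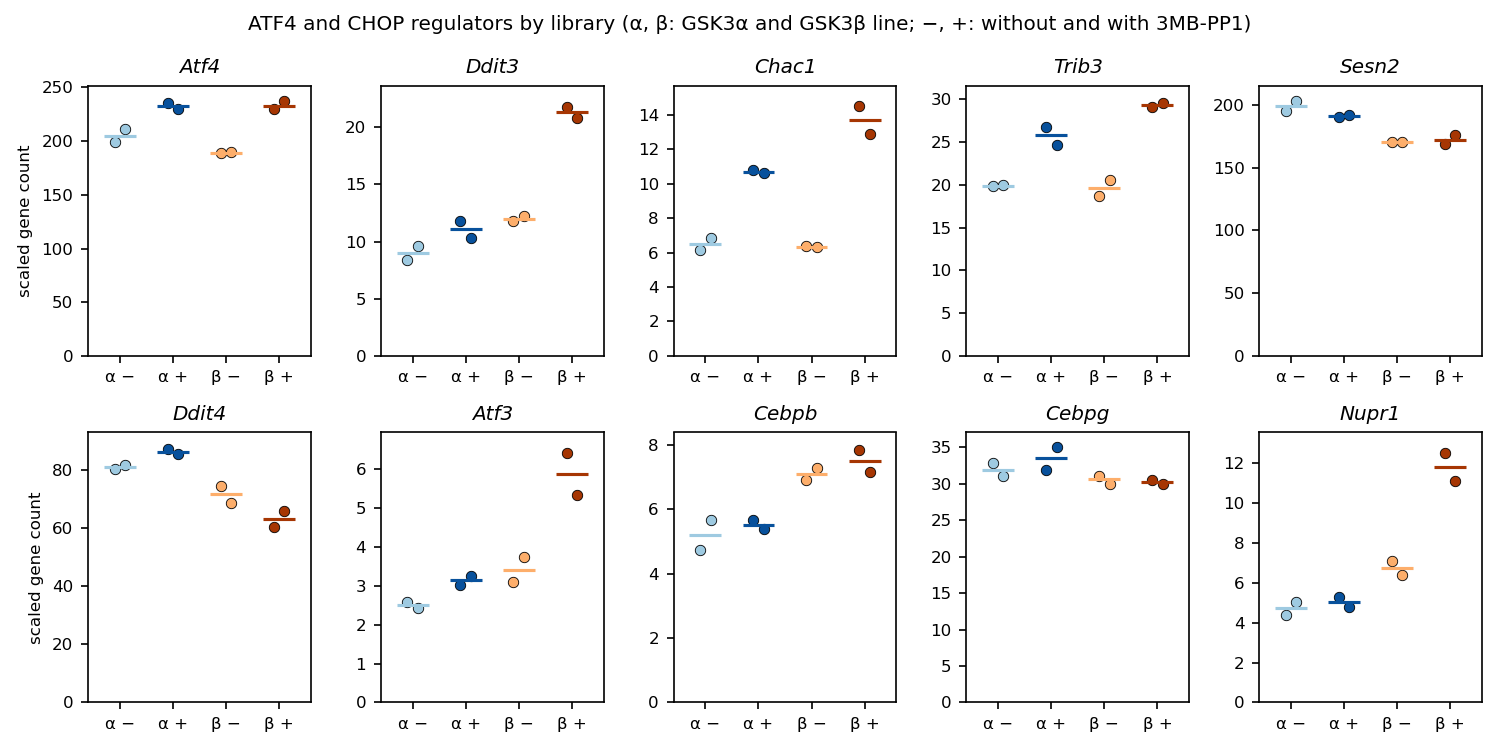
Value of each of the 10 genes in each of the 8 libraries (vertical axis, scaled gene count, from 0), with points for libraries and a bar for the mean of 2; α and β are the lines, minus and plus stand for untreated and 3MB-PP1. Both treated libraries of the GSK3β line lie above every other library for Ddit3, Chac1, Trib3, Atf3 and Nupr1, while Atf4 reached 233 in both lines. How many of all tested genes stand in such an order was not counted.

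Atf4 itself (chromosome 15, 80255184 to 80257541, mm10, plus strand) was measured at 4481 to 8244 estimated reads. Its values were 199 and 211 in the untreated GSK3α line and 236 and 230.2 with 3MB-PP1. GSK3β libraries had 189 and 189.9 untreated and 230.1 and 237 with 3MB-PP1. Treated and untreated libraries did not overlap in either line, and the treated libraries of both lines shared a range. The log2 change was 0.30 ± 0.03 (SE, adjusted p = 3.25e-06, limma) in the GSK3β line and 0.18 ± 0.03 (adjusted p = 0.00916) in the GSK3α line. The difference of these changes was 0.12 (95% interval 0.02 to 0.22) and did not pass (adjusted p = 0.146). Untreated, the GSK3β line was lower by a log2 difference of -0.12 (adjusted p = 0.00759), and with inhibitor the lines had the same mean of 233 (log2 0.00, 95% interval -0.07 to 0.07). The call in the GSK3α line ended without untreated replicate 1 (adjusted p = 0.123), without inhibitor replicate 1 (0.225) or 2 (0.0816) and without the mean-variance trend (0.278), within a range of 0.00365 to 0.278 over 16 alternatives. The call in the GSK3β line held in all 16, with adjusted p up to 0.0152.

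Ddit3 encodes CHOP, a C/EBP-family factor that ATF4 induces and that dimerises with C/EBP proteins and promotes cell death when stress persists. Its GENCODE entries lie on chromosome 10 (the longer from 127290774 to 127296288, mm10, plus strand). Values in the GSK3β line were 11.8 and 12.2 untreated and 21.8 and 20.8 with 3MB-PP1. Those in the GSK3α line were 8.41 and 9.61 untreated and 11.8 and 10.3 with 3MB-PP1. The 4 groups stood in the order untreated GSK3α, treated GSK3α, untreated GSK3β and treated GSK3β. Treated and untreated libraries did not overlap in either line, and the treated GSK3β libraries were the highest. The rise in the GSK3β line was 0.78 ± 0.08 on the log2 scale (SE, adjusted p = 2.14e-06, limma), or 1.78-fold in the means. The GSK3α line had a log2 change of 0.27 (95% interval 0.10 to 0.44), which did not pass after adjustment over all genes (adjusted p = 0.158). The change was larger in the GSK3β line by 0.51 (95% interval 0.26 to 0.75, adjusted p = 0.0124). The libraries did not overlap between the lines either untreated (log2 0.38, adjusted p = 0.000908) or treated (0.89, adjusted p = 5.44e-08). The difference of the changes lost its call without untreated replicate 2 (adjusted p = 0.0528) or inhibitor replicate 2 (0.0810) of the GSK3α line, without inhibitor replicate 1 of the GSK3β line (0.0805) and without the trend (0.1), within 0.00637 to 0.1 over 15 alternatives. Of the 890 merged exon bases of Ddit3, 68 are shared with Mars, the methionyl-tRNA synthetase gene on the other strand, which rose in the GSK3β line from 164 ± 8.17 (SD, n = 2) to 189 (log2 0.21). The strand setting of the counting is not given in the sources used here, so reads in these bases cannot be told apart.

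Atf3, an early bZIP repressor induced by ATF4, p53 and growth signals (chromosome 1, 191170296 to 191218039, minus strand), had the lowest values of the 10 genes and 57 to 214 estimated reads. In the GSK3β line its values were 3.09 and 3.75 untreated and 6.42 and 5.34 with 3MB-PP1. Those of the GSK3α line were 2.58 and 2.42 untreated and 3.02 and 3.26 with 3MB-PP1. Treated libraries lay above untreated ones in both lines. The log2 change was 0.64 ± 0.12 (SE, adjusted p = 0.00101, limma) in the GSK3β line, whereas the 0.24 (95% interval -0.01 to 0.49) of the GSK3α line did not pass (adjusted p = 0.445). Over 16 alternatives the change ranged from 0.37 (pseudocount of 5) to 0.77 (pseudocount of 0.1) in the GSK3β line, with adjusted p up to 0.0428, and from 0.12 to 0.31 in the GSK3α line. The difference of the changes, 0.40, did not pass either (adjusted p = 0.179). Treated GSK3β libraries were higher than treated GSK3α libraries by 0.73 (adjusted p = 5.62e-05), or 0.42 with a pseudocount of 5.

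Cebpb and Cebpg encode C/EBP factors that pair with ATF4 and with CHOP, and neither passed the test with 3MB-PP1 in either line. Cebpb (chromosome 2, 167688915 to 167690418, plus strand) had 4.75 and 5.68 untreated and 5.66 and 5.39 treated in the GSK3α line, and 6.93 and 7.29 untreated and 7.84 and 7.16 treated in the GSK3β line. The log2 changes were 0.08 (95% interval -0.13 to 0.28) and 0.07 (-0.14 to 0.28). What set its libraries apart was the line, higher in GSK3β by 0.39 untreated (adjusted p = 0.00362, limma) and by 0.38 treated (adjusted p = 0.00410), with no overlap between lines. Each of these calls ended without 1 library, untreated GSK3α replicate 1 (adjusted p = 0.0577, within 0.00143 to 0.0577) and treated GSK3β replicate 1 (0.0552, within 0.00147 to 0.0552). Both log2 differences were 0.25 with a pseudocount of 5. Cebpg (chromosome 7, 35046422 to 35056573, minus strand), which lacks an activation domain and serves as a partner of ATF4, had all 8 values between 29.9 and 35.0. Its log2 changes were 0.06 (95% interval -0.05 to 0.18) in the GSK3α line and -0.02 (-0.13 to 0.10) in the GSK3β line.

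Chac1, which breaks down glutathione and is a target of ATF4 and CHOP (chromosome 2, 119351229 to 119354381, plus strand), changed most of the 10 genes in both lines. Values were 6.14 and 6.85 untreated and 10.8 and 10.6 with 3MB-PP1 in the GSK3α line. The GSK3β line had 6.37 and 6.31 untreated and 14.5 and 12.9 with 3MB-PP1. The untreated lines overlapped, and every treated library stood above every untreated one. The log2 change was 1.0 ± 0.09 (SE, adjusted p = 2.03e-07, limma) in the GSK3β line, 2.16-fold in the means. The GSK3α line gave 0.65 ± 0.09 (adjusted p = 0.000927), 1.65-fold in the means. The difference of 0.35 (95% interval 0.09 to 0.61) did not pass (adjusted p = 0.0996). Treated libraries of the GSK3β line were higher than those of the GSK3α line by 0.32 (adjusted p = 0.00491), and leaving out inhibitor replicate 1 of the GSK3β line ended this call (0.0915, within 0.000946 to 0.0915). The call in the GSK3α line ended in 1 of 16 alternatives, the fit without the trend (adjusted p = 0.0969, within 0.000419 to 0.0969).

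Trib3, a pseudokinase that CHOP and ATF4 induce and that restrains ATF4 in turn (chromosome 2, 152337422 to 152344032, minus strand), followed the same order. It had 19.8 and 20 untreated and 26.8 and 24.7 treated in the GSK3α line, and 18.7 and 20.5 untreated and 29.1 and 29.5 treated in the GSK3β line. Treated and untreated libraries did not overlap, and the untreated lines did. The log2 changes were 0.56 ± 0.06 (SE, adjusted p = 3.61e-06, limma) in the GSK3β line and 0.35 ± 0.06 (adjusted p = 0.00671) in the GSK3α line, and their difference of 0.20 did not pass (adjusted p = 0.189). The GSK3α call ended without untreated replicate 1 (adjusted p = 0.0503), without inhibitor replicate 1 (0.222) and without the trend (0.224), within 0.00196 to 0.224.

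Nupr1, a small chromatin-associated stress protein downstream of ATF4 (chromosome 7, 126623249 to 126630861, minus strand), rose in the GSK3β line from 7.11 and 6.38 to 12.5 and 11.1. Its values in the GSK3α line were 4.40 and 5.06 untreated and 5.30 and 4.78 treated, which overlap. The log2 change was 0.72 ± 0.10 (SE, adjusted p = 5.61e-05, limma) in the GSK3β line and 0.08 (95% interval -0.14 to 0.29) in the GSK3α line. The difference of 0.65 (95% interval 0.35 to 0.95) passed (adjusted p = 0.00953), and was the largest among the 10 genes. It lost the call without inhibitor replicate 2 of the GSK3α line (0.0565), without inhibitor replicate 1 of the GSK3β line (0.0810) and without the trend (0.0758), within 0.00368 to 0.0810 over 15 alternatives. Nupr1 was also higher in the GSK3β line before treatment, by 0.44 (adjusted p = 0.00161, limma), or 0.27 with a pseudocount of 5, and with inhibitor by 1.08 (adjusted p = 5.66e-08).

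**Figure D2:**
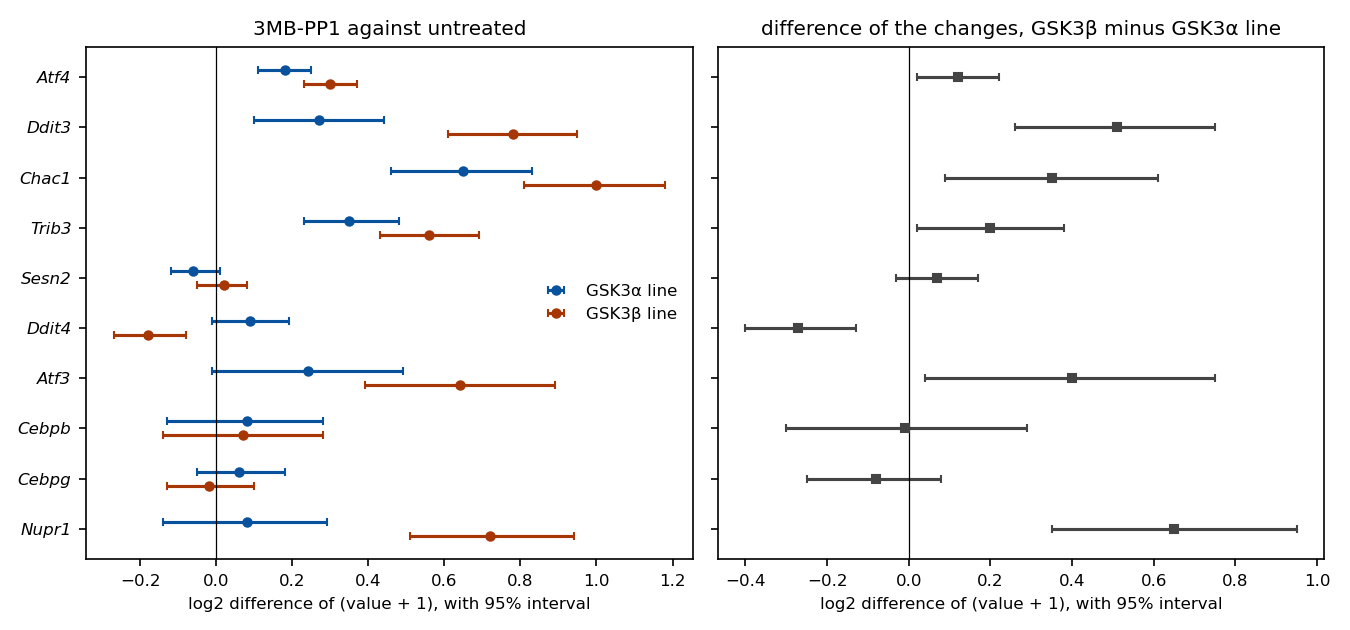
Log2 change of each gene with 3MB-PP1 in the GSK3α (blue) and GSK3β line (brown) at left, and the GSK3β change minus the GSK3α change at right; bars are 95% intervals of the limma fit, unadjusted for the number of genes. Chac1 has the largest change in both lines (0.65 and 1.0), and at right Ddit3 (0.51), Nupr1 (0.65) and Ddit4 (-0.27) are the genes whose difference passed the adjusted test.

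Sesn2 and Ddit4 encode brakes on mTORC1, the kinase complex that couples nutrients to growth, and neither rose. The product of Sesn2 (chromosome 4, 132492032 to 132510501, minus strand), is a leucine sensor that ATF4, NRF2 and p53 can induce. Its values were 195 and 203 untreated and 190.4 and 192 treated in the GSK3α line, and 170.2 and 170.4 untreated and 169 and 176 treated in the GSK3β line. The log2 changes were -0.06 (95% interval -0.12 to 0.01) and 0.02 (-0.05 to 0.08), so a change as large as that of Atf4 in the GSK3β line lies outside both intervals. Sesn2 was lower in the GSK3β line, untreated (log2 -0.22, adjusted p = 1.78e-05, limma) and treated (-0.15, adjusted p = 0.000848).

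Ddit4, also known as REDD1, acts through the TSC complex and is induced by hypoxia, glucocorticoids, p53 and ATF4 (chromosome 10, 59949669 to 59951834, minus strand). Among the 10 genes it was the 1 that fell. It went from 74.5 and 68.6 to 60.4 and 65.9 in the GSK3β line, a log2 change of -0.18 ± 0.05 (SE, adjusted p = 0.0121, limma). The GSK3α line had 80.2 and 81.8 untreated and 87.1 and 85.4 treated, a log2 change of 0.09 (95% interval -0.01 to 0.19) that did not pass (adjusted p = 0.464). Libraries did not overlap in either line. The difference was -0.27 (95% interval -0.40 to -0.13, adjusted p = 0.0179). The fall in the GSK3β line lost its call without untreated replicate 1 (adjusted p = 0.168) or inhibitor replicate 1 (0.25) of that line and without the trend (0.128), within 0.00235 to 0.25. The difference lost it without either inhibitor library of the GSK3α line (0.0924 and 0.0563), without untreated replicate 1 (0.0752) or inhibitor replicate 1 (0.138) of the GSK3β line and without the trend (0.180), within 0.00258 to 0.180.

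Before treatment the lines differed in 7 of the 10 genes, where 48.2% of all tested genes differed, 22.3% higher and 25.9% lower in the GSK3β line. Ddit3, Atf3, Cebpb and Nupr1 were higher and Atf4, Sesn2 and Ddit4 lower in the GSK3β line. With 3MB-PP1 9 of the 10 differed, against 49.0% of all tested genes, 21.2% higher and 27.7% lower. Ddit3, Chac1, Trib3, Atf3, Cebpb and Nupr1 were higher and Sesn2, Ddit4 and Cebpg lower, and Atf4 was the exception. The direction of the background depends on the scaling. With libraries rescaled to the same total, 4023 of all tested genes were higher and 2805 lower untreated, in place of 3111 and 3612. Treated, 3560 were higher and 3258 lower, in place of 2962 and 3871. Of the 10 genes 4 were then higher and 2 lower untreated, and 6 higher and 2 lower treated. Both comparisons of the lines use the same libraries as the changes with treatment. The call of Atf3 untreated (log2 0.33, or 0.17 with a pseudocount of 5, adjusted p = 0.0278) ended without either untreated GSK3α library or untreated GSK3β replicate 2 (0.0522, 0.108 and 0.221), and in the fit of only the 4 libraries (0.0506), within 0.0154 to 0.221. That of Cebpg treated (-0.14, adjusted p = 0.0386) ended in 6 of 16 alternatives, with adjusted p up to 0.367 and a log2 difference of -0.08 without treated GSK3α replicate 2. Atf4 untreated lost its call with libraries rescaled to the same total (log2 -0.06, adjusted p = 0.104), without the trend (0.0769) and without untreated GSK3α replicate 2 (log2 -0.07, adjusted p = 0.122), within 0.00253 to 0.122. Ddit4 untreated lost it without the trend (0.0536) and without untreated GSK3β replicate 2 (0.0624), and Trib3 treated lost it without inhibitor replicate 2 of the GSK3α line (0.214) or either inhibitor library of the GSK3β line (0.0710 and 0.105).

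Levels can be compared between genes only per length. Divided by the merged exon length in GENCODE M21, in kilobases, the untreated GSK3α line had 119 for Atf4, 57.2 for Sesn2 and 46.1 for Ddit4. The other 7 genes lay between 1.16 (Atf3) and 10.1 (Ddit3) on this scale. In the treated GSK3β line Atf4 had 135 and Ddit3 24.0, and the lowest was again Atf3 at 2.73. The exon models used by the authors are not given in the sources used here, so these levels are approximate.

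Profiles over the 8 libraries were compared by the root mean square difference of log2(value + 1), each gene centred on its own mean. Among the 10 genes Sesn2 and Cebpg were closest (0.0813), followed by Ddit3 and Nupr1 (0.109), and Ddit4 and Nupr1 were farthest apart (0.628). Among 10803 genes whose mean reached 5, those closest to Ddit3 outside the 10 were Fam53b (0.137), the receptor gene Tnfrsf19 (0.146), the neurofilament gene Nefl (0.147), Xaf1 (0.156) and the amino acid transporter gene Slc1a4 (0.158). Among those closest to Chac1 were the phosphatase gene Dusp14 (0.205), Tmem181b-ps (0.223), the aquaporin gene Aqp3 (0.249) and Lrrc15 (0.25). Closest to Atf4 were Zmat5 (0.0227), Rfx2 (0.0398), Nkiras2 (0.0402), Rabif (0.0456) and Arfrp1 (0.0466). The distances grow with the size of a gene's own change, so they rank neighbours of 1 gene and do not compare the 3 genes with each other. The same holds for pairs among the 10. Sesn2 (log2 -0.06 and 0.02 in the GSK3α and GSK3β line) and Cebpg (0.06 and -0.02) both changed little with 3MB-PP1. Their small distance does not show shared regulation.

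Other genes of the pathway were read from lists, upstream parts first. Of 19 tested genes for eIF2α kinases, their regulators, eIF2, its exchange factor eIF2B and phosphatases, 4 rose and 1 fell in the GSK3β line. Another 14 did not pass there, and none passed in the GSK3α line. The 5 calls in the GSK3β line are 26.3%, where 14.9% of all tested genes passed. In the GSK3α line 0.881% of all tested genes passed. The 5 calls became 2 without untreated replicate 1 or inhibitor replicate 2 of the GSK3β line, 3 without its inhibitor replicate 1 and 1 without the trend. Eif2s2, the β subunit of eIF2, went from 1051 ± 12.8 (SD, n = 2) to 1220.2 ± 30.7 in the GSK3β line (log2 0.22, adjusted p = 3.96e-05, limma). The GCN2 activator gene Gcn1l1 and the eIF2B subunit gene Eif2b4 also rose by 0.22, and the phosphatase gene Ppp1ca fell by 0.12. Of 24 other bZIP factors 4 rose and 4 fell in the GSK3β line, 33.3% beside the 14.9% of all tested genes. These included Bach1 (log2 0.33) and Nfe2l1 (0.23) upward and Cebpd (-0.57) and Junb (-0.52) downward. Of the 24, 1 rose in the GSK3α line, the repressor gene Nfil3, named after its value was seen. That count became 0 without untreated replicate 1 or either inhibitor library of the GSK3α line and without the trend, and 2 without untreated replicate 2.

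Targets of ATF4 in amino acid supply rose in the GSK3β line in 23 of 29, with 3 lower. These 89.7% compare with 14.9% of all tested genes. In the GSK3α line 1 of 29 rose, Slc1a4, with none lower, where 0.881% of all tested genes passed. The median log2 change of this list was 0.21 in the GSK3β line and 0.06 in the GSK3α line. The change itself differed between the lines for 10 of the 29 upward and 3 downward, and 16 did not pass. Of all tested genes 6.53% differed. The counts of 23 and 1 therefore do not show that the change differed for most of the list. A call also took stronger evidence in the GSK3α line, as said above. With 1 library left out 17 to 23 of the 29 were higher in the GSK3β line, and 14 were without the trend. The single call in the GSK3α line was lost without any 1 of the 4 libraries of that line, with either treated GSK3β library removed and without the trend, and the count became 2 without either untreated GSK3β library. Asparagine synthetase, Asns, rose from 306 ± 5.52 (SD, n = 2) to 403 ± 14.4 in the GSK3β line (log2 0.40, adjusted p = 5.76e-08, limma), and was 401 ± 8.81 and 399 ± 6.70 in the GSK3α line. The arginine transporter gene Slc7a1 (0.42) and the serine synthesis gene Psat1 (0.31) rose, and the glutamine transporter gene Slc38a2 fell by 0.34. The element TGATGNAA was found for 9 of the 21 genes of this list that have a promoter window, namely Aars, Asns, Gars, Iars, Pycr1, Slc1a4, Slc7a11, Tars and Yars. Of the 750 genes that rose in the GSK3β line and have a window 5.07% had it. It was found for 2.86% of the 769 that fell and for 2.59% of all 10126 tested genes with a window. The 5.07% counts the regulators with the element and the genes just named except Slc7a11, which did not pass. These were chosen as ATF4 targets with earlier results known, so the share is not separate from them. Binding of ATF4 was not tested. The 4 genes with the element printed above were all among those that rose in the GSK3β line. Of the 6 with no match in their window Atf4 and Ddit3 rose. The 10 genes were also chosen with earlier results known, and the search was made because several moved together. This split therefore does not test a link between the element and the rise.

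**Figure D3:**
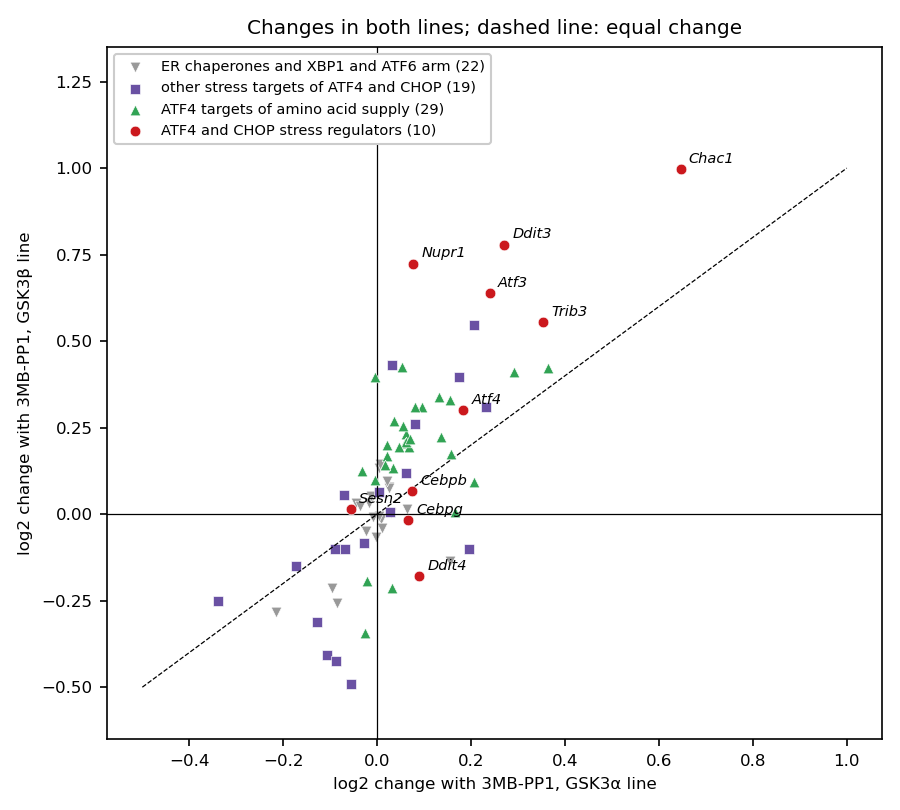
Log2 change with 3MB-PP1 in the GSK3α line (horizontal axis) and the GSK3β line (vertical axis) for the tested genes of 4 lists; the dashed line marks equal change and the 10 regulators are named. Chac1, Ddit3, Nupr1, Atf3, Trib3, Atf4 and Sesn2 lie above the dashed line, and Ddit4, Cebpb and Cebpg below it. Among these 10 the difference between the lines passed for Ddit3, Nupr1 and Ddit4 only. The 22 genes of the ER chaperone list have medians of 0.00 and 0.01, with Derl3 (-0.28 in the GSK3β line) farthest below 0.

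The other branches of the unfolded protein response act through XBP1 and ATF6. Of 22 ER chaperones and genes of these branches, 1 rose in the GSK3β line, Hyou1 (log2 0.14), 2 fell, Xbp1 (-0.26) and Derl3 (-0.28), and 19 did not pass. These 13.6% are near the 14.9% of all tested genes, and they became 1 gene without untreated replicate 1 or inhibitor replicate 1 of that line. None passed in the GSK3α line or in the difference between the lines. None of the 18 genes of this list with a promoter window held TGATGNAA. Of 19 other stress targets of ATF4 and CHOP, 4 rose and 4 fell in the GSK3β line, 42.1% beside the 14.9% of all tested genes. Vegfa rose by 0.43, and the pro-apoptotic genes Bbc3 (-0.49) and Bcl2l11 (-0.41) and the ubiquitin ligase adaptor gene Klhl24 (-0.43) fell. The 8 calls became 5 without inhibitor replicate 1 of the GSK3β line, 1 of them upward. Of these 19, 1 fell in the GSK3α line, Pmaip1, named after its value was seen, and none did without inhibitor replicate 2 of that line or without the trend.

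Of 11 tested paralogs of the 10 genes none rose, 3 fell and 8 did not pass in the GSK3β line. None passed in the GSK3α line. The 3 that fell are 27.3%, where 14.9% of all tested genes passed in the GSK3β line, 7.44% of them downward. Without untreated replicate 2 of the GSK3α line 1 paralog was higher in each line, and 1 was in the GSK3β line without untreated replicate 1 of the GSK3α line or untreated replicate 2 of its own. Trib1 went from 27.5 ± 0.187 (SD, n = 2) to 21.5 ± 0.880 in the GSK3β line (log2 -0.34, adjusted p = 0.000564, limma), where Trib3 rose. Cebpd fell by 0.57 on the log2 scale, and Ddit4l fell by 0.16 beside Ddit4. Of 12 genes of glutathione synthesis and breakdown 2 rose and 2 fell in the GSK3β line, 33.3% beside the 14.9% of all tested genes. The synthetase gene Gss rose from 60.8 ± 3.56 to 82.5 ± 1.48 (log2 0.44, adjusted p = 7.78e-07, limma), and both subunit genes of glutamate-cysteine ligase, Gclm (-0.22) and Gclc (-0.15), fell. These 4 calls became 2 without either inhibitor library of the GSK3α line, without untreated replicate 1 of the GSK3β line or without the trend, and 1 without inhibitor replicate 1 of the GSK3β line. Of 27 genes of mTORC1 and its amino acid sensors 1 rose, Rragd (0.34), and 2 fell, Rheb (-0.17) and Mios (-0.18). This share of 11.1% lies below the 14.9% of all tested genes, and the count was 1 without untreated replicate 1 or inhibitor replicate 1 of the GSK3β line. Of 10 genes for turnover of ATF4 protein 1 fell, Egln3 (-0.38), a share of 10%, and none passed without untreated replicate 1 or inhibitor replicate 1 of that line. None of these 3 lists had a gene past the threshold in the GSK3α line.

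Because Sesn2, Ddit4 and Atf3 also answer to p53 and Ddit4 to hypoxia, targets of p53 and HIF were read beside them. Of 18 p53 targets 9 fell and 2 rose in the GSK3β line, 61.1% beside the 14.9% of all tested genes. Without the trend 5 fell and 2 rose. Btg2 (log2 -0.39) and Eda2r (-0.33) were lower and the cell cycle inhibitor gene Cdkn1a (0.92) higher. Of 14 HIF targets 5 fell and 2 rose, with Bnip3 (-0.62), Slc2a1 (-0.29) and Pdk1 (-0.19) lower. The 7 HIF calls became 3 without inhibitor replicate 1 and 4 without untreated replicate 1 of the GSK3β line. In the GSK3α line, where 0.881% of all tested genes passed, 1 p53 target, Pmaip1, and 2 HIF targets, Slc2a1 and Kdm3a, fell. None of either list rose there. With 1 library left out these counts ranged from 0 to 3 for both lists. The p53 count was 0 without inhibitor replicate 2 of the GSK3α line and 3 without either untreated GSK3β library. The HIF count was 0 without any 1 of the 4 GSK3α libraries or either inhibitor library of the GSK3β line, and 3 without either untreated GSK3β library. The lists overlap, so Pmaip1, Bbc3, Cebpd, Vegfa and Egln3 each count in more than 1 of them.

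**Figure D4:**
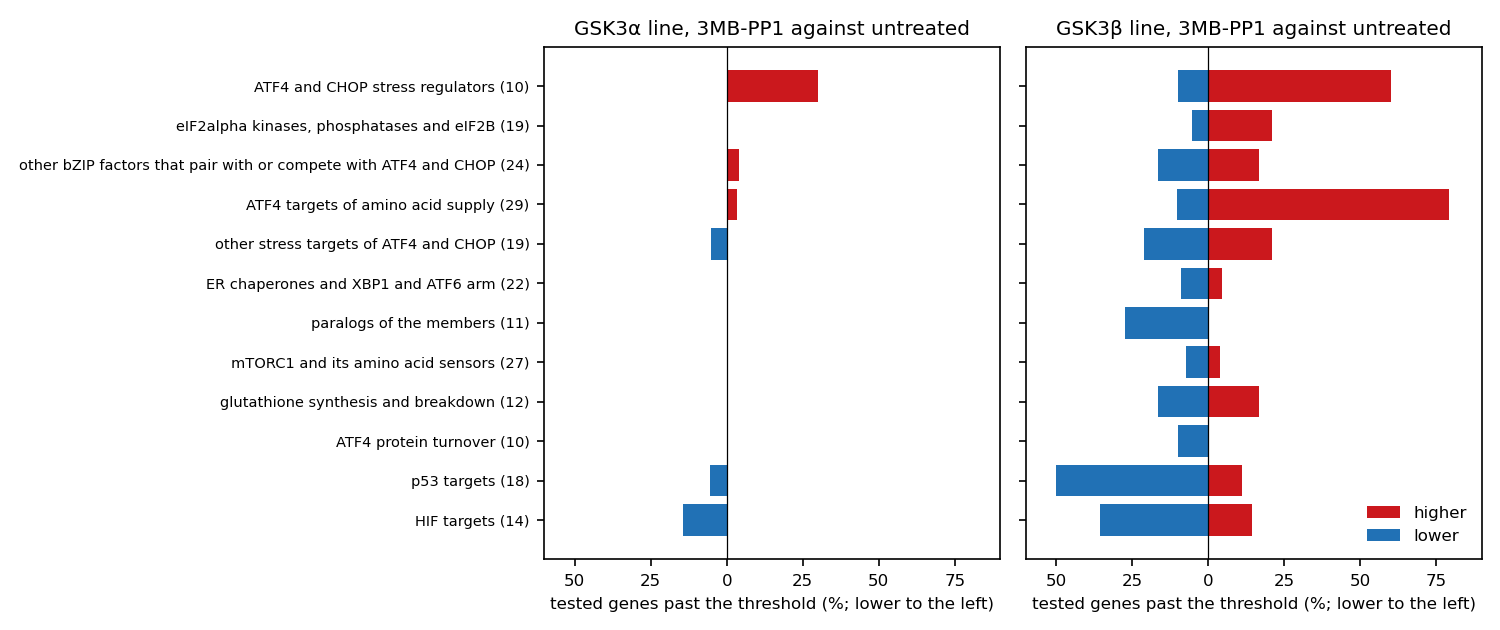
Share of the tested genes of each list that was higher (red, to the right) or lower (blue, to the left) with 3MB-PP1 in the GSK3α line (left panel) and the GSK3β line (right panel), in percent; the number of tested genes is in brackets. The regulators (6 of 10 higher) and the amino acid supply genes (23 of 29 higher) have the longest bars to the right in the GSK3β line. There 9 of 18 p53 targets extend to the left. Among all tested genes 7.49% were higher and 7.44% lower in that line. A call took stronger evidence in the GSK3α line, so the lengths of bars do not compare the lines.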

How the data were processed

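Total RNA was sequenced from Illumina TruSeq libraries, per the labels' protocols, in 8 libraries of 2 per group. Partek, TopHat2 and mm10 appear in the submitters' processing notes, without versions or roles. The authors deposited 1 table of 48321 genes, of which 17488 had values. Its values are named counts but are not whole numbers. Upper quartiles agreed within 0.0548% between libraries, and only 63 to 67.2% of low values (up to 20 reads, tolerance 0.1) were whole multiples of 1 read, so the deposited values were treated as a scaled signal and no count model was run. The test first intended for counts was therefore replaced by limma.

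Genes with a mean of at least 1 (13959) were tested on log2(value + 1) with limma 3.58.1 (R 4.3.3) with a mean-variance trend, 1 mean per group, 4 residual degrees of freedom and 5 contrasts. A fold change on this scale understates that of low genes. The scripts were tested on simulated data. Depth in reads was estimated by taking the smallest value of each library as 1 read. Every estimate of reads therefore rests on 1 value per library. The 10 genes and all gene lists were chosen with earlier results of these data known. Of each pathway list, up to 4 genes with the smallest adjusted p in the GSK3β line, then the GSK3α line, and a mean of at least 5 in the higher group were named. Coordinates are from GENCODE M21 (GRCm38, mm10) and promoters from RefSeq. For Atf4, Ddit3 and Chac1 the 5 genes with the most similar profile were sought, of which 1 is not reported here. The authors' lists of targets were not used.

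Alternatives changed the pseudocount, the minimum, the scaling, the trend and the libraries fitted, added a replicate block, and left out each library in turn.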

Additional observations from a re-analysis of the deposited data

Results flagged for a closer look

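The change with 3MB-PP1 differed between the lines, by the limma contrast of the 2 changes (adjusted p under 0.05), for 3 of the 10 regulators and for 19 of the 34 other genes named from the lists, where 6.53% of all tested genes differed. The 34 were named mainly for the smallest adjusted p in the GSK3β line, which uses the same libraries, so their number is raised by that choice and says nothing about the lists. Values are the log2 change in the GSK3β line minus that in the GSK3α line. Among the regulators they were 0.51 for Ddit3, 0.65 for Nupr1 and -0.27 for Ddit4. In amino acid supply they were 0.40 for Asns, 0.37 for Slc7a1, 0.22 for Psat1 and -0.32 for Slc38a2. In translation initiation Eif2s2 had 0.22 and Gcn1l1 0.25, and among bZIP factors Bach1 had 0.23 and Cebpd -0.55. Among other stress targets Vegfa had 0.40, Klhl24 -0.34, Bbc3 -0.44 and Bcl2l11 -0.30. Ddit4l, the paralog of Ddit4, had -0.29. The GTPase gene Rragd had 0.29 and the glutathione synthetase gene Gss 0.41. Among p53 and HIF targets Cdkn1a had 1.14, Btg2 -0.24, Eda2r -0.23 and Bnip3 -0.39.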

How the results depend on the processing

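Without the mean-variance trend the regulators called fell to 0 of 10 in the GSK3α line (from 3) and to 0 for the difference between lines (from 3). All tested genes called fell to 3 (from 123) in the GSK3α line, 980 (from 2084) in the GSK3β line and 133 (from 911) for the difference. The cause was not tested.

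Leaving out 1 library at a time gave 1 to 3 regulators in the GSK3α line, 6 to 7 in the GSK3β line, 0 to 3 for the difference, 5 to 7 between untreated lines and 5 to 9 between treated lines. The 5 came without treated GSK3β replicate 1. All tested genes called ranged from 16 to 186 in the GSK3α line, where 16 and 25 came without inhibitor replicates 1 and 2, 55 and 60 without the untreated ones and 186 without either untreated GSK3β library. They ranged from 864 to 2277 in the GSK3β line, with 864 without inhibitor replicate 1 and 1181 without untreated replicate 1 of that line. For the difference they ranged from 353 to 1339, with 353 without treated GSK3β replicate 1, 566 without untreated GSK3β replicate 1 and 450 and 472 without the treated GSK3α replicates. A lone library left in a group is assumed to vary like the other groups.

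The log2 values that changed sign were small and not called. In the GSK3α line, leaving out a library gave -0.03 to 0.18 for Cebpb, -0.00 to 0.13 for Cebpg and -0.01 to 0.16 for Nupr1. In the GSK3β line it gave -0.01 to 0.04 for Sesn2 and -0.04 to 0.01 for Cebpg. For the difference Cebpb gave -0.12 to 0.10, and 0.00 with a pseudocount of 5 or with each library centred on its median. Between untreated lines Chac1 gave -0.10 to 0.04 and Trib3 -0.09 to 0.04, with 0.02 and 0.03 after rescaling to the same total. Between treated lines Atf4 gave -0.02 to 0.02.

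Replicate numbers did not pair the samples, since correlations of same-numbered deviations were -0.0447 to 0.0271. With a replicate block 3, 7, 3, 7 and 9 regulators were called in the GSK3α line, the GSK3β line, their difference and the untreated and treated comparisons, and 106, 1997, 831, 6648 and 6772 of all tested genes. The fit of only 4 libraries cannot be made for the difference, which needs all 8.

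With 2 libraries per group and 57 to 214 estimated reads for Atf3, the interval of each change is wide for the low genes.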
